A study of Mus musculus with 8 samples.

Results

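The GIMAP genes encode small GTPases of immune cells, and the 8 listed mouse members Gimap1, Gimap3, Gimap4, Gimap5, Gimap6, Gimap7, Gimap8 and Gimap9 were read from a table of 25124 genes by their symbols. The table held no other row whose symbol starts with Gimap. All 8 passed the filter on low counts and were tested together with the other genes. The libraries came from spleen CD4 T cells of mice carrying a green reporter for KLF2 and a red reporter for FOXP3. Every group lacked the FOXP3 reporter and was CD44hi, a gate for activated and memory cells, and the KLF2 reporter split the cells into KLF2+ and KLF2- (positive and negative) populations. Cells were then held for 48 h without a stimulus, or with anti-CD3 at 2.5 µg/mL and anti-CD28 at 1.25 µg/mL, antibodies that engage the T cell receptor and its costimulatory receptor. The 4 groups had 2 libraries each, numbered 1 and 2 for KLF2+ and 3 and 4 for KLF2-. Whether the replicates were separate animals or cultures was not stated, and a p-value here reflects no more than the spread of these libraries, which may be technical.

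GIMAP proteins (GTPases of immunity-associated proteins) share a GTP-binding domain of the AIG1 type, and many are anchored in the membranes of organelles such as the endoplasmic reticulum, mitochondria, lysosomes and Golgi. The family is known for its part in the survival of lymphocytes: loss of Gimap5 in rats and mice and loss of Gimap1 in mice deplete peripheral T cells. Its genes lie in a single cluster and are known to be read mainly in lymphocytes, with T cells among the highest.

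In the annotation of the deposited table (mm10) the cluster lies on chromosome 6, in the order Gimap8 (48647361 to 48660875), Gimap9 (48676135 to 48678704), Gimap4 (48684578 to 48692062), Gimap6 (48701583 to 48708244), Gimap7 (48718621 to 48724636), Gimap1 (48739047 to 48743795), Gimap5 (48746197 to 48754200) and Gimap3 (48764464 to 48770851). Gimap6 and Gimap3 are on the minus strand and the other 6 on the plus strand. No other gene of the table lies between them. The 250 bases before the start site are shown for 3 members: Gimap7, which rose with stimulation of KLF2+ cells in every fit, Gimap4, which with Gimap7 was called higher in stimulated KLF2+ than KLF2- cells in every fit, and Gimap8, which after background correction ran opposite to Gimap7 in the KLF2+ response and between the stimulated populations. They are written 5′ to 3′ from RefSeq (GRCm38.p6, the mm10 assembly), on the plus strand, at chr6:48718371-48718620 for Gimap7, chr6:48684328-48684577 for Gimap4 and chr6:48647111-48647360 for Gimap8. Capitals mark the 5-letter core bound by KLF factors (CACCC, or GGGTG on the other strand) and the 6-letter RUNX sequence (TGTGGT, or ACCACA on the other strand).
Gimap7: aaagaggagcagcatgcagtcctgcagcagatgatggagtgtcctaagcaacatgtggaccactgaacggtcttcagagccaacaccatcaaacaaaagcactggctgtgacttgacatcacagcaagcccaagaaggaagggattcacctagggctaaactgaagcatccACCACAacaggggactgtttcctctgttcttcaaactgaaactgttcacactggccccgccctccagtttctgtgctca
Gimap4: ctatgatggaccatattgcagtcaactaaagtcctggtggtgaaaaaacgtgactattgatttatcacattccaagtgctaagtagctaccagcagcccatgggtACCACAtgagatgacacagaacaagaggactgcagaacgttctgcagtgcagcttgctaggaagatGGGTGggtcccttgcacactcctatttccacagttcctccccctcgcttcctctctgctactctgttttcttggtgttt
Gimap8: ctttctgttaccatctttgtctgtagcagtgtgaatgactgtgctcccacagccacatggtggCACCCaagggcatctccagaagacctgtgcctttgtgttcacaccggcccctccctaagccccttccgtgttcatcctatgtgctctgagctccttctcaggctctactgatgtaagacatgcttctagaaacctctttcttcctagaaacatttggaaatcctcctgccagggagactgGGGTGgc
Counted back from the start site, the base before it being -1, the Gimap7 window holds a RUNX match whose first base is at -79 and no KLF core. The Gimap4 window holds a RUNX match at -145 and a KLF core at -79, and the Gimap8 window holds KLF cores at -187 and -7. No KLF and RUNX matches overlap in these windows.

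All 8 members matched the RefSeq promoter table, whose windows run from 250 bases before to 50 bases after a start. Over both strands the KLF core lay in the windows of 5 of 8 members (Gimap3, Gimap4, Gimap5, Gimap8 and Gimap9), against 57.5% of 32851 windows in the table. TGTGGT lay in 3 of 8 (Gimap1, Gimap4 and Gimap7), against 16.8%. The NFAT core GGAAA lay in 7 of 8, all but Gimap9, against 61.3%, and can share letters with the RBPJ string TGGGAA and the ETS string CCGGAA. The RBPJ string lay in Gimap3 alone (25.6% of windows), the ETS string in 0 of 8 (14.9%), the FOXO string GTAAACA in Gimap3 alone (3.65%), and the TCF/LEF string CTTTGA in Gimap4 and Gimap7 (16.0%). These are matches of letters, not sites shown to be bound.

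Libraries differed in depth along the lines of the groups. Reads over exons ran from 2.99 M (M, mega) in stimulated KLF2- replicate 4 to 36.6 M in stimulated KLF2+ replicate 2, and made up 7.96% to 80.3% of aligned tags. Receptor genes for smell gave a density of background reads, which by exon length amounted to 0.401% to 20.1% of exon reads, lowest in the stimulated KLF2+ and highest in the stimulated KLF2- libraries. For single GIMAP genes background was at most 8.00% of the count, in Gimap5 of stimulated KLF2- replicate 4. Values are therefore given on 2 scales, CPM (read counts brought to equal library size by edgeR's TMM method) and background-corrected CPM, in which these reads were subtracted and the scaling was taken from genes of at least 50 CPM. TMM factors from such genes, without the subtraction, shifted the median log2 fold change over all genes by -0.28 between the unstimulated populations, -1.20 between the stimulated ones, -0.51 and 0.39 in the KLF2+ and KLF2- responses and -0.91 in their difference. Klf2 transcript was at 303 and 379 CPM in the unstimulated KLF2+ libraries and 93.5 and 139 CPM in the stimulated ones, against 41.0 and 65.0, and 46.6 and 75.7 CPM, in KLF2- cells. Without a stimulus it followed the sort, with log2 fold changes of 2.69 with TMM and 2.40 after background correction. Between the stimulated populations it gave 0.93 with TMM (edgeR adjusted p = 0.0236) and -0.39 after correction, where the libraries overlapped. The 10 CD4 T cell markers were detected in every library. Macrophage and monocyte markers summed to 858 and 1627 CPM in unstimulated KLF2+ cells and to 37.4 to 84.4 CPM in the other 6 libraries.

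Gimap3, Gimap4 and Gimap6 were the most abundant members in every group. Of the reads over exons the 8 genes together took 0.386% and 0.463% in the unstimulated KLF2+ libraries and 0.317% and 0.323% in the stimulated ones. In the KLF2- libraries they took 0.317% and 0.344% before and 0.269% and 0.288% after stimulation. The 95% Wilson intervals of these shares are at most 0.0121 percentage points wide and cover counting error only. Background reads are part of the exon reads and so enter these shares. After background correction the 8 genes summed to 3935 and 4627 CPM in unstimulated and 3356 and 3390 CPM in stimulated KLF2+ libraries. In KLF2- libraries the sums were 3285 and 3571 CPM, then 2876 and 3527 CPM, and the stimulated populations overlapped. The lowest count of any member in any library was 214 reads, for Gimap5. Per kilobase of exon, Gimap3 (557 and 851 CPM per kb) and Gimap4 (555 and 852) overlapped at the top in unstimulated KLF2+ cells, followed by Gimap6 (375 and 612), whose range overlapped theirs. Gimap1 (173 and 223) and Gimap9 (149 and 235) overlapped in the middle, and Gimap7 (56.5 and 118), Gimap8 (50.3 and 57.4) and Gimap5 (40.0 and 62.4 CPM per kb) lay at the bottom with overlapping ranges.

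In both KLF2- groups the order by CPM per kb was Gimap3, Gimap4, Gimap6, Gimap1, Gimap9, Gimap7, Gimap8 and Gimap5, with neighbours overlapping only for Gimap1 and Gimap9 in stimulated cells. Gimap3 reached 410 and 493 CPM per kb without a stimulus and 304 and 308 with it, and Gimap5 24.1 and 28.7, then 21.0 and 24.1. Stimulated KLF2+ cells had another order. Gimap4 stood first at 946 and 986 CPM per kb, above Gimap3 at 589 and 627, and Gimap7 moved up to overlap Gimap1, at 232 and 271 against 256 and 262. Gimap5 (70.0 and 77.9) was above Gimap8 (40.9 and 42.6 CPM per kb), which was last. Gimap3 and Gimap5 are near copies over part of their transcripts: 7.52% of the 50-base stretches of Gimap3 and 4.53% of those of Gimap5 occur in the other, so a share of their reads may have been split between them. Of the 50-base stretches of Gimap1, 35.5% occur in another gene, mostly on the opposite strand in Gimap1os, and since the treatment of strand in counting was not given, sense and antisense reads of Gimap1 cannot be told apart.

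**Figure D1:**
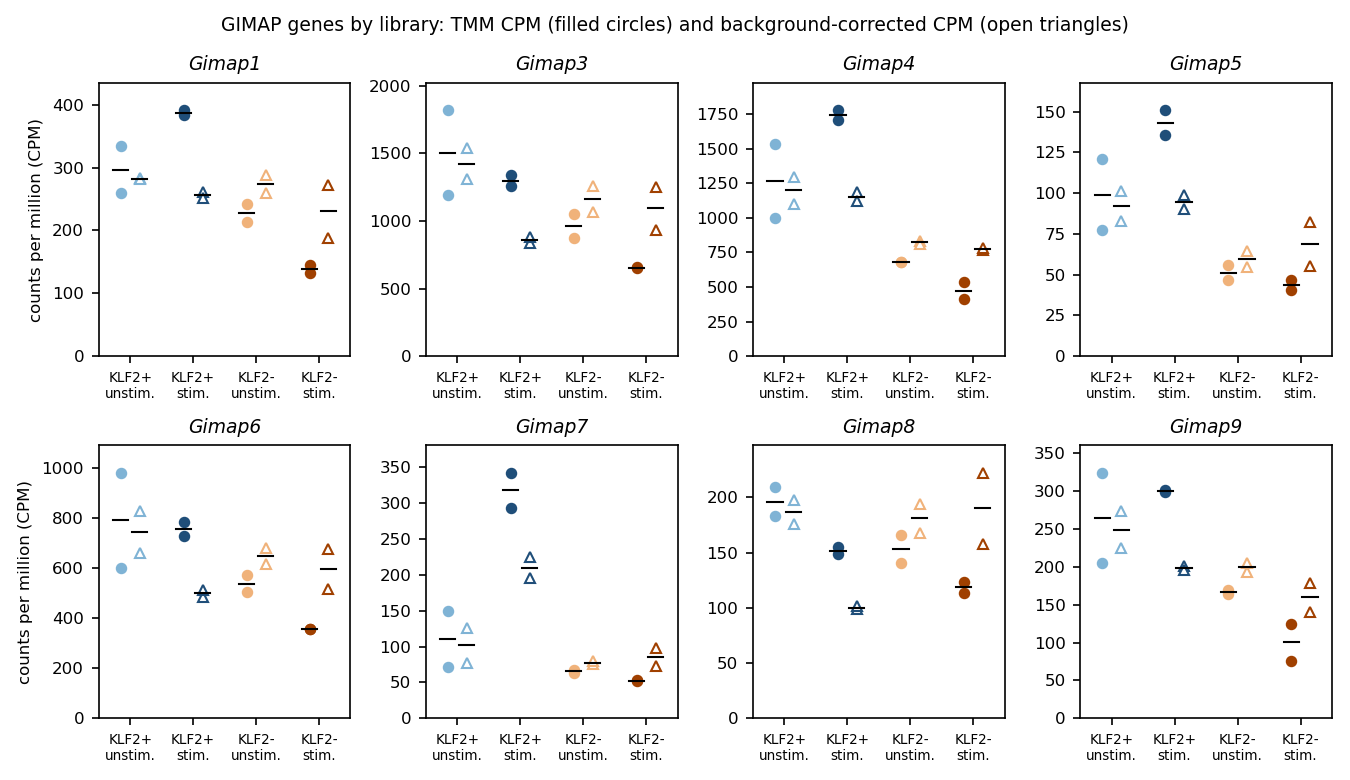
Level of each GIMAP gene in CPM (vertical axes, starting at 0) in the 8 libraries, 2 per group; filled circles are TMM CPM, open triangles background-corrected CPM, and bars the mean of 2 libraries. Gimap7 is highest in stimulated KLF2+ cells on both scales, while Gimap3, Gimap6 and Gimap8 are lower there than in stimulated KLF2- cells on the corrected scale alone.

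With stimulation of KLF2+ cells, Gimap7 was the member that rose, and it did so on both scales. Gimap7, which is known to hydrolyse GTP and to act on another member in human cells, was at 71.5 and 149 CPM without a stimulus and at 293 and 342 CPM with it. Both stimulated libraries lay above both unstimulated ones. This is a log2 fold change of 1.52 ± 0.31 (SE, 2 libraries a group), with a Benjamini-Hochberg adjusted p of 0.00702 in edgeR. After background correction it was 1.04 ± 0.24, and in each of 17 alternatives it was called, with log2 fold changes from 0.92 to 2.19 and adjusted p-values from 3.58e-08 to 0.0327. Of the 8 members 1 was called, in the higher direction, where 37.1% of all genes tested were called and 19.7% were higher.

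The other 7 members were not called on the TMM scale. Gimap8, the longest member, with several GTP-binding domains in its protein, was at 183 and 209 CPM without a stimulus and at 149 and 155 CPM with it, a log2 fold change of -0.37 ± 0.19. Its stimulated libraries lay below the unstimulated ones on both scales. Gimap3, a mitochondrial and endoplasmic reticulum protein close to Gimap5, was at 1191 and 1820 CPM, then 1259 and 1340 CPM (log2 fold change -0.21 ± 0.28). Gimap6, known for its link to the autophagy protein GABARAPL2, was at 602 and 983 CPM, then 730 and 784 CPM (-0.07 ± 0.27). For Gimap3 and Gimap6 the stimulated libraries lay within the unstimulated range.

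After background correction these 3 members fell: Gimap8 by 0.90 ± 0.18, Gimap3 by 0.73 ± 0.18 and Gimap6 by 0.58 ± 0.18 on the log2 scale. That scale called 4 of 8 members, 1 higher and 3 lower, where 29.1% of genes were called, 12.7% higher and 16.4% lower. On it Gimap8 was at 198 and 175 CPM without a stimulus and 98.5 and 102 CPM with it, and Gimap3 at 1308 and 1538, then 839 and 880 CPM. In both cases the groups did not overlap. The adjusted p-values over all alternatives ran from 0.00346 to 0.451 for Gimap8, 0.00698 to 0.780 for Gimap3 and 0.0122 to 0.979 for Gimap6 (edgeR, DESeq2 or limma). Without unstimulated KLF2+ replicate 2, Gimap3 and Gimap6 turned to log2 fold changes of 0.17 and 0.37 on the TMM scale.

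Gimap4, which is known to affect the death of T cells, was at 1002 and 1538 CPM without a stimulus and at 1780 and 1708 CPM with it, with the stimulated libraries above. Gimap5, which is required for the survival of peripheral T cells and linked to GSK3 control, was at 77.5 and 121 CPM, then 136 and 151 CPM. Gimap1, which mature T and B cells need, was at 259 and 334 CPM, then 391 and 383 CPM. The log2 fold changes of Gimap4 (0.46 ± 0.28), Gimap5 (0.53 ± 0.24), Gimap1 (0.39 ± 0.21) and Gimap9 (0.18 ± 0.28) did not pass edgeR's test, and after background correction those of Gimap4 (-0.06), Gimap1 (-0.14) and Gimap9 (-0.33) had the other sign. In 2 of 8 members edgeR's unadjusted p was under 0.05, where it was in 51.9% of all genes. On the TMM scale all 8 members were higher in unstimulated KLF2+ replicate 2 than in replicate 1, from 1.14-fold in Gimap8 to 2.09-fold in Gimap7, and after background correction 6 of 8 were. Macrophage and monocyte markers were lower with stimulation of KLF2+ cells, 9 of 10 called on the TMM scale, and their part in the GIMAP values was not tested.

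Stimulated KLF2+ cells had more Gimap7 and Gimap4 than stimulated KLF2- cells in every fit, while the call for the other members turned on the scaling. On the TMM scale 7 of 8 members were higher in KLF2+ cells and 0 lower, where 75.2% of all genes were called and 35.5% were higher. After background correction 2 were higher and 1 lower, where 54.5% of genes were called, 16% higher and 38.6% lower. The scale moved all genes: their median log2 fold change was -0.19 with TMM, -1.39 with TMM factors from genes of at least 50 CPM and -0.47 after background correction.

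Gimap7 stood at 293 and 342 CPM in stimulated KLF2+ cells and at 51.8 and 53.5 CPM in stimulated KLF2- cells. The log2 fold change of Gimap7 came to 2.59 ± 0.32 (SE; edgeR, Benjamini-Hochberg adjusted p = 0.000299), and 1.31 ± 0.25 after background correction, where the libraries were at 195 and 225 against 72.7 and 97.7 CPM. The groups did not overlap on either scale. In 16 of 16 alternatives Gimap7 was called higher, with log2 fold changes from 1.14 to 2.75 and adjusted p-values from 1.49e-12 to 0.00605. Gimap4 stood at 1780 and 1708 CPM against 536 and 413 CPM, a log2 fold change of 1.88 ± 0.29 (adjusted p = 0.000563 by edgeR). Its background-corrected value was 0.57 ± 0.13, from 1186 and 1122 against 771 and 785 CPM, and it was called in 16 of 16 alternatives, with log2 fold changes from 0.45 to 2.14 and adjusted p-values from 4.61e-10 to 0.0284.

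Gimap8 went the other way after correction. It was at 149 and 155 CPM in stimulated KLF2+ cells against 114 and 123 CPM in stimulated KLF2- cells (log2 fold change 0.36 ± 0.19, not called). Background-corrected, it was at 98.5 and 102 CPM against 158 and 222 CPM, a log2 fold change of -0.92 ± 0.18. The groups did not overlap on either scale, but in opposite directions. Its adjusted p was 0.00566 there by edgeR, with a range from 0.000718 to 0.456 over its alternatives. Background reads were up to 5.69% of the Gimap8 count in a library.

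Gimap1 (391 and 383 against 132 and 145 CPM), Gimap5 (136 and 151 against 40.7 and 46.6 CPM) and Gimap9 (301 and 298 against 125 and 76.1 CPM) were higher by log2 fold changes of 1.48 ± 0.22, 1.72 ± 0.25 and 1.57 ± 0.29 (edgeR adjusted p of 0.00045, 0.000423 and 0.00123). For these 3 both KLF2+ libraries lay above both KLF2- libraries on the TMM scale. After background correction the values were 0.15, 0.47 and 0.31 and were not called. Gimap3 (1259 and 1340 against 651 and 658 CPM; log2 fold change 0.99 ± 0.28) and Gimap6 (730 and 784 against 359 and 356 CPM; 1.08 ± 0.27) were called higher with TMM by edgeR (adjusted p of 0.00989 and 0.00552). Their background-corrected values were -0.35 and -0.25, so their direction reversed with the scaling. The number of members called on the TMM scale also moved when single libraries were left out, and a group then rested on 1 library. Markers of other cell types were called in both directions between these populations (edgeR, TMM), where 35.5% of all genes were higher and 39.7% lower. Of 10 B cell markers 3 were higher and 2 lower in stimulated KLF2+ cells. Their sums overlapped, at 165 and 222 against 109 and 186 CPM, and at 103 and 143 against 105 and 236 CPM after background correction. Single markers went both ways on the TMM scale: Cd79a was at 34.2 and 48.8 against 0.742 and 4.25 CPM, and Ebf1 at 3.93 and 3.27 against 23.5 and 28.4 CPM. Of 8 tested erythroid and platelet markers 4 were higher and 0 lower, with sums of 134 and 90.6 against 25.5 and 30.8 CPM. Lower were 5 of 10 macrophage and monocyte markers, with 1 higher, 7 of 10 endothelial markers, with 1 higher, and 2 of 6 NK cell markers. Macrophage and monocyte sums overlapped, at 49.4 and 84.4 against 37.4 and 66.9 CPM. They also overlapped after background correction, at 29.7 and 54.1 against 22.8 and 60.3 CPM. Endothelial sums were lower, at 112 and 125 against 133 and 220 CPM, and NK sums at 36.7 and 40.7 against 45.4 and 59.7 CPM. Both stayed lower after background correction. The part of these markers in the GIMAP values was not tested.

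**Figure D2:**
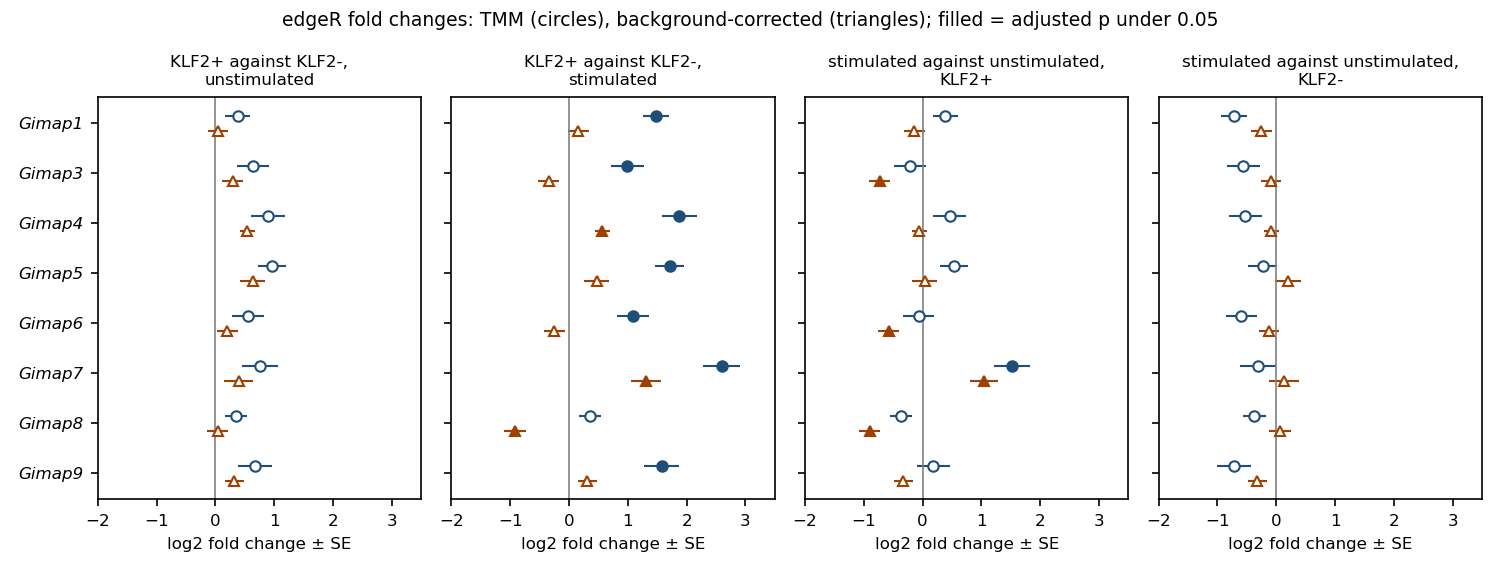
Log2 fold change ± SE (horizontal axes) of each GIMAP gene in 4 comparisons from edgeR, with TMM (circles) and after background correction (triangles); filled symbols have an adjusted p under 0.05. Gimap7 and Gimap4 are filled on both scales for stimulated KLF2+ against KLF2- cells, and Gimap3, Gimap6 and Gimap8 change sign between the scales.

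Without a stimulus no member was called between KLF2+ and KLF2- cells, although all 8 were above in both KLF2+ libraries on the TMM scale. Over all genes 2.32% were called, and 26.1% had both KLF2+ libraries above both KLF2- libraries. After background correction 4 of 8 members lay above in this way, where 18.2% of genes did. Log2 fold changes ran from 0.35 for Gimap8 to 0.96 ± 0.24 for Gimap5, with a median of 0.66 against -0.11 over all genes. Gimap5 (77.5 and 121 against 46.8 and 55.7 CPM) had the smallest Benjamini-Hochberg adjusted p in edgeR, 0.080, with a range from 0.0117 to 0.638 over its alternatives. In 5 of 8 members edgeR's unadjusted p was under 0.05, where it was in 19.2% of all genes. DESeq2 called 2 members, Gimap4 and Gimap5, and 1148 genes in all. After background correction the values ran from 0.04 to 0.63 and again 0 of 8 were called by edgeR, where 4.02% of genes were called.

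In unstimulated cells Gimap4 was at 1002 and 1538 CPM in KLF2+ against 685 and 684 CPM in KLF2- libraries, and Gimap3 at 1191 and 1820 against 876 and 1054 CPM. The gap between the KLF2+ replicates exceeded the gap from replicate 1 to the KLF2- libraries in both genes. The number of members called depended on which library was left out, and a group then rested on 1 library. Macrophage and monocyte markers moved with this comparison: 4 of 10 were called higher in unstimulated KLF2+ cells, and Lyz2, the most abundant, was at 705 and 1376 CPM against 3.20 and 3.40 CPM. Their part in the GIMAP values was not tested. In bulk RNA, fewer cells of a type and less RNA per cell cannot be told apart.

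In KLF2- cells no member was called with stimulation, nor was any gene of the table (0% by edgeR). All 8 members were lower in both stimulated libraries on the TMM scale, where 30.2% of genes were, and 2 of 8 were after background correction, where 17.4% of genes were. Their log2 fold changes ran from -0.72 (Gimap1 and Gimap9) to -0.23 (Gimap5). In 2 of 8 edgeR's unadjusted p was under 0.05, where it was in 14.6% of all genes. Gimap7 was at 62.6 and 67.9 CPM without a stimulus and at 51.8 and 53.5 CPM with it (-0.31 ± 0.31). After background correction Gimap7 (0.13), Gimap5 (0.20) and Gimap8 (0.07) had the other sign and the remaining 5 stayed negative. DESeq2 called 0 of 8 members here and 74 genes in all. The stimulated KLF2- libraries were the shallowest, with 4.53 M and 2.99 M exon reads. They also differed in a fixed list of 10 cell division genes, all higher in replicate 3 than in replicate 4 (TMM CPM). Top2a was at 219 and 40.6 CPM in them, against 49.4 and 44.4 CPM without a stimulus. Mki67 was at 73.4 and 25.8 CPM, against 15.7 and 14.8 CPM. The same 2 libraries enter the comparison of the stimulated populations, and the part of this gap in the calls was not tested.

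The difference between the responses of KLF2+ and KLF2- cells was called for 2 of 8 members on the TMM scale, both higher, where 35.8% of genes were called and 20.3% were higher. For Gimap7 it was 1.83 ± 0.43 on the log2 scale (adjusted p = 0.0205 by edgeR) and for Gimap1 1.10 ± 0.30 (adjusted p = 0.0261). After background correction the values were 0.91 ± 0.35 and 0.11 ± 0.25, and 0 of 8 members were called, where 11.8% of genes were. Over all alternatives the log2 difference ran from 0.84 to 2.51 for Gimap7 and from 0.037 to 1.34 for Gimap1. The members called on the TMM scale changed when single libraries were left out, and a group then rested on 1 library. Gimap8 gave 0.0045 ± 0.27 with TMM and -0.96 ± 0.26 after correction, where its adjusted p was 0.0505.

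The make-up of GIMAP RNA within a library does not depend on how libraries are scaled, and it differed in stimulated KLF2+ cells. As a share of the summed CPM per kb of the 8 genes, Gimap7 took 2.89% and 3.92% in KLF2+ libraries without a stimulus and 8.13% and 9.25% with it. It took 3.34% and 3.28% in unstimulated and 3.74% and 4.18% in stimulated KLF2- cells. Both stimulated KLF2+ libraries lay above the other 6, and the group means were 8.69% ± 0.793 (SD, n = 2) against 3.41% ± 0.731, 3.31% ± 0.0420 and 3.96% ± 0.316.

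Gimap4 also took its largest share there, 34.6% and 32.4%, against 28.4% and 28.3% in unstimulated KLF2+ cells and 22.7% to 27.1% in the KLF2- libraries. The share of Gimap3 was lowest in stimulated KLF2+ cells, at 20.6% and 21.4% against 27.7% to 30.4% in the other 6 libraries. Gimap6 took 15.9% and 16.7% there against 19.2% to 21.9%, and Gimap8 1.43% and 1.45% against 1.91% to 3.35%. For each of these 5 genes the stimulated KLF2+ libraries did not overlap the other 6. The ratio of Gimap7 to Gimap8 reads was 1.97 and 2.21 in the stimulated KLF2+ libraries and 0.391 to 0.715 in the other 6. Of all pairs of members these ran together least in these same libraries, so their ratio restates the contrast and adds no support. These shares and ratios were given no test.

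**Figure D3:**
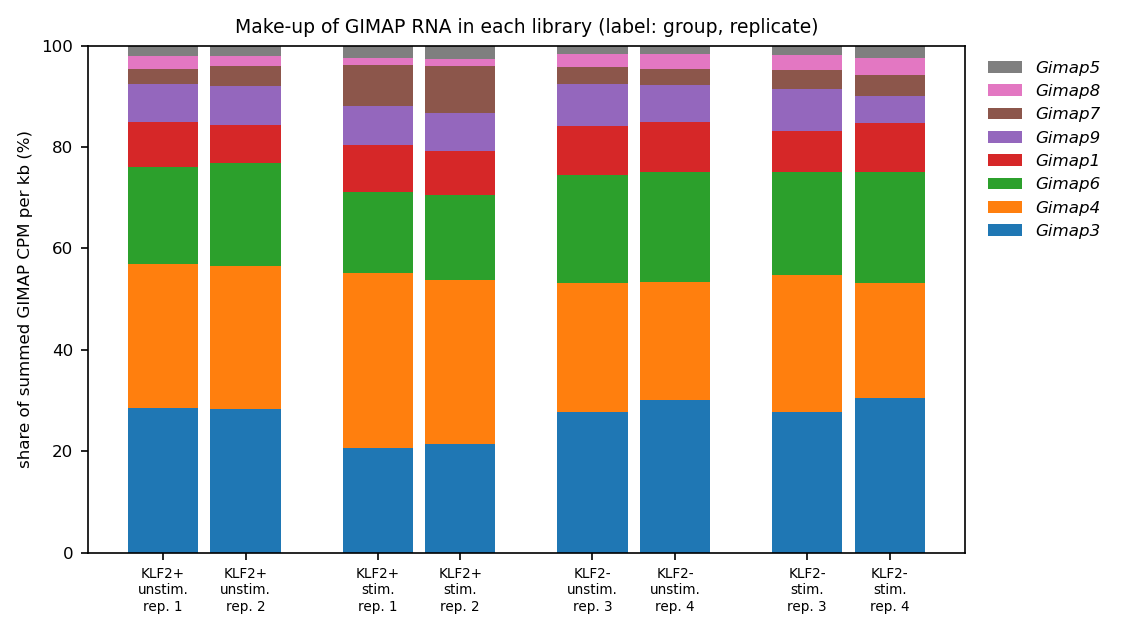
Share of each GIMAP gene in the summed GIMAP CPM per kb (vertical axis, %) in each of the 8 libraries, stacked to 100%. The 2 stimulated KLF2+ libraries have the widest Gimap4 and Gimap7 bands and the narrowest Gimap3, Gimap6 and Gimap8 bands.

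The sum of GIMAP reads was set against the reads of 10 CD4 T cell markers (among them Cd3e, Cd4 and Lck), which also needs no scaling between libraries. This sum differed little, but both stimulated KLF2+ libraries lay below all others. It amounted to 64.8% and 65.7% of the marker reads in KLF2+ libraries without a stimulus and 60.95% and 57.5% with it, and to 65.3% and 64.4%, then 65.7% and 61.7%, in KLF2- libraries. All 10 markers were themselves called higher in stimulated KLF2+ than KLF2- cells on the TMM scale, where 35.5% of all genes were. Their median log2 fold change was 1.60. After background correction the marker sums of the stimulated populations overlapped, at 5506 and 5900 against 4384 and 5726 CPM. The ratio of GIMAP to marker reads was chosen after the values were seen. Single members moved within it: Gimap7 was 3.68% ± 0.185 (SD, n = 2) of the marker reads in stimulated KLF2+ cells and 1.48% to 1.73% on average in the other 3 groups, and Gimap3 15.1% ± 0.221 against 21.5% to 21.9%. Gimap8 was 1.76% ± 0.0538 in stimulated KLF2+ cells and 3.89% ± 0.244 in stimulated KLF2- cells, which did not overlap.

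Across the 8 libraries, log2 CPM of the members ran together on the TMM scale. Pearson's r over the 28 pairs had a median of 0.90, from 0.36 for Gimap7 with Gimap8 to 0.99 for Gimap3 with Gimap6. The libraries share their scaling and depth, and this is a description. On the background-corrected scale Gimap3 and Gimap6 still ran together (r = 0.98) and both ran with Gimap8 (0.81 and 0.75). Gimap4 ran with Gimap5 (0.82) and Gimap9 (0.74), Gimap5 with Gimap7 (0.76), and Gimap7 ran against Gimap8 (-0.82).

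The genes outside the family whose log2 CPM followed the mean GIMAP pattern most closely were, by Pearson's r over 8 libraries, Ctsb (0.999), Mterf3 (0.997), Sptlc2 (0.997), Marc2 (0.996) and C1galt1c1 (0.996), of 10389 genes whose mean reached 10 CPM. Ctsb, the lysosomal protease cathepsin B, was at 710 and 1237 CPM in KLF2+ libraries without a stimulus and 1020 and 1112 CPM with it, and at 483 and 558, then 332 and 296 CPM, in KLF2- libraries. A correlation of at least 0.9 was shared by 21% of the candidates, which share the scaling. On the background-corrected scale, examined after the values were seen, 0.828% of 9907 candidates reached 0.9, the 5 closest were S100a11 (0.987), Rnf138 (0.975), Rnf125 (0.974), Rab3ip (0.971) and Scrn3 (0.967), and 0 of them were among the first 5.

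Of the 5 nearest genes on each side of the cluster, 9 were tested. In stimulated KLF2+ against KLF2- cells 1 of them was higher and 5 lower by edgeR on the TMM scale, where 35.5% of all genes were higher and 39.7% lower. Of those 5, Gm5111, Gm7932 and Aoc1 averaged at most 11.4 CPM in either population. Tmem176b and Tmem176a, paired membrane proteins that begin 63.0 and 70.6 kb beyond Gimap3, were the only neighbours with a mean above 50 CPM. Tmem176b was at 55.7 and 71.7 CPM in stimulated KLF2+ cells against 189 and 114 CPM in stimulated KLF2- cells, with log2 fold changes of -1.25 ± 0.31 for Tmem176b and -1.37 ± 0.26 for Tmem176a. Their libraries did not overlap, and after background correction the values were -2.53 and -2.65.

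Without a stimulus Tmem176b was at 58.3 and 94.2 CPM in KLF2+ against 270 and 207 CPM in KLF2- libraries (log2 fold change -1.64 ± 0.31, edgeR adjusted p = 0.0273), and Tmem176a differed by -1.71 ± 0.27 (adjusted p = 0.0109). With stimulation of KLF2+ cells they gave -0.26 and -0.14, not called, and -0.76 and -0.64 after background correction, both called lower. On the other side Repin1, a zinc-finger gene, rose with stimulation of KLF2+ cells by 1.47 ± 0.27 (edgeR adjusted p = 0.0051), from 9.80 to 27.2 CPM on average. AI854703, the gene nearest to Gimap8 at 13.7 kb, was the neighbour called higher in stimulated KLF2+ than KLF2- cells, by 1.38 ± 0.44, with averages of 8.72 and 3.31 CPM. After background correction AI854703 was still called higher, by 9.09 ± 1.64, and 1 neighbour was higher and 5 lower. With TMM factors from genes of at least 50 CPM the log2 fold change of AI854703 was 0.21 (edgeR adjusted p = 0.706). In that fit 0 neighbours were higher and 6 lower.

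**Figure D4:**
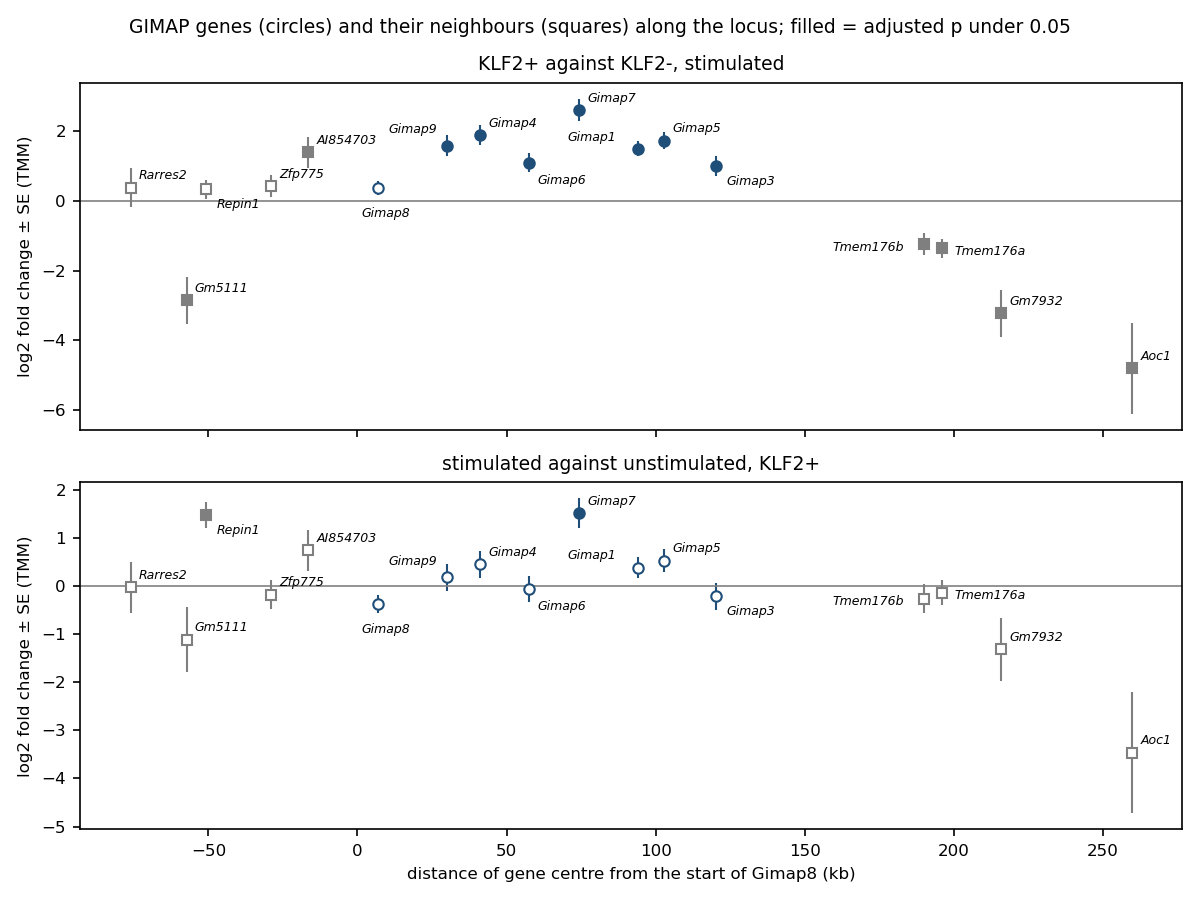
Log2 fold change ± SE (TMM, edgeR) of GIMAP genes (circles) and tested neighbours (squares) by distance of the gene centre from the start of Gimap8 in kb, for stimulated KLF2+ against KLF2- cells (top) and for stimulation of KLF2+ cells (bottom); filled symbols have an adjusted p under 0.05. In the top panel Tmem176b and Tmem176a lie below 0 and 7 of 8 GIMAP genes above it are filled, while Gimap3 and Gimap6 fall below 0 after background correction; in the bottom panel Gimap7 is the filled GIMAP gene.

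Genes of the processes in which GIMAP proteins are known to act, and of resting and dividing T cells, were read from fixed lists for stimulation of KLF2+ cells. All 10 cell division genes rose (Birc5 by 5.11 ± 0.48, Cdk1 by 4.28 ± 0.47 and Aurkb by 5.11 ± 0.59 on the log2 scale) and 10 of 10 rose after background correction. Of 17 genes of resting T cells 12 fell and 1, Satb1, rose. Klf3, a factor related to KLF2, changed by -1.80 ± 0.23, the cytokine receptor gene Il7r by -2.17 ± 0.28 and the signalling inhibitor Pik3ip1 by -1.64 ± 0.26. After background correction 15 fell and 0 rose. The medians were 4.48 for division and -0.996 for resting genes, against -0.25 over all genes.

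In the BCL2 family, which governs cell death, 5 of 10 genes rose with stimulation of KLF2+ cells and 1, Bbc3, fell (edgeR, TMM). Bcl2l11, which promotes death, rose by 1.25 ± 0.20, Bcl2l1, which opposes it, by 2.11 ± 0.40, and Pmaip1, which promotes it, by 1.04 ± 0.27. After background correction Bcl2l1 (1.62) and Bcl2l11 (0.79) rose and Bbc3 (-1.37) fell. Of 12 autophagy and ATG8 genes only Gabarapl1 rose (0.94 ± 0.24), and after correction 0 rose and 2, Map1lc3b (-0.53) and Atg12 (-0.78), fell. None of 5 GSK3 and beta-catenin genes was called on either scale by edgeR. Of 14 tested interferon-inducible GTPases, another family of immune GTPases, 6 rose and 0 fell, with the largest log2 fold changes in Gbp2 (2.20 ± 0.33), Iigp1 (1.71 ± 0.49) and Gbp5 (1.28 ± 0.37). After correction 1 rose, Gbp2 (1.65), and 1 fell, Gbp9 (-0.79). Over all genes 19.7% rose and 17.4% fell in this comparison with TMM, and 12.7% rose and 16.4% fell after correction.

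The same lists in stimulated KLF2+ against KLF2- cells showed how far a count followed the scale. On the TMM scale 6 of 10 BCL2 family genes, 10 of 12 autophagy genes, 3 of 5 GSK3 and beta-catenin genes and 11 of 14 interferon-inducible GTPases were higher and 0 lower, where 35.5% of all genes were higher and 39.7% lower. Background-corrected, the BCL2 family had 1 higher (Mcl1) and 2 lower (Bcl2 and Bbc3), and autophagy 0 higher and 4 lower (Map1lc3b, Sqstm1, Atg16l1 and Ulk1). GSK3 and beta-catenin had 0 higher and 2 lower (Axin1 and Apc), and interferon-inducible GTPases 2 higher (Gbp2 and Gbp3) and 1 lower (Gbp9). Over all genes 16% were then higher and 38.6% lower, and the counts of lower autophagy and GSK3 genes lay near that share. For resting T cell genes 6 were higher and 2 lower with TMM, and 0 higher and 12 lower after correction. Of the cell division genes 10 of 10 were higher with TMM and 6 of 10 after correction.

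**Figure D5:**
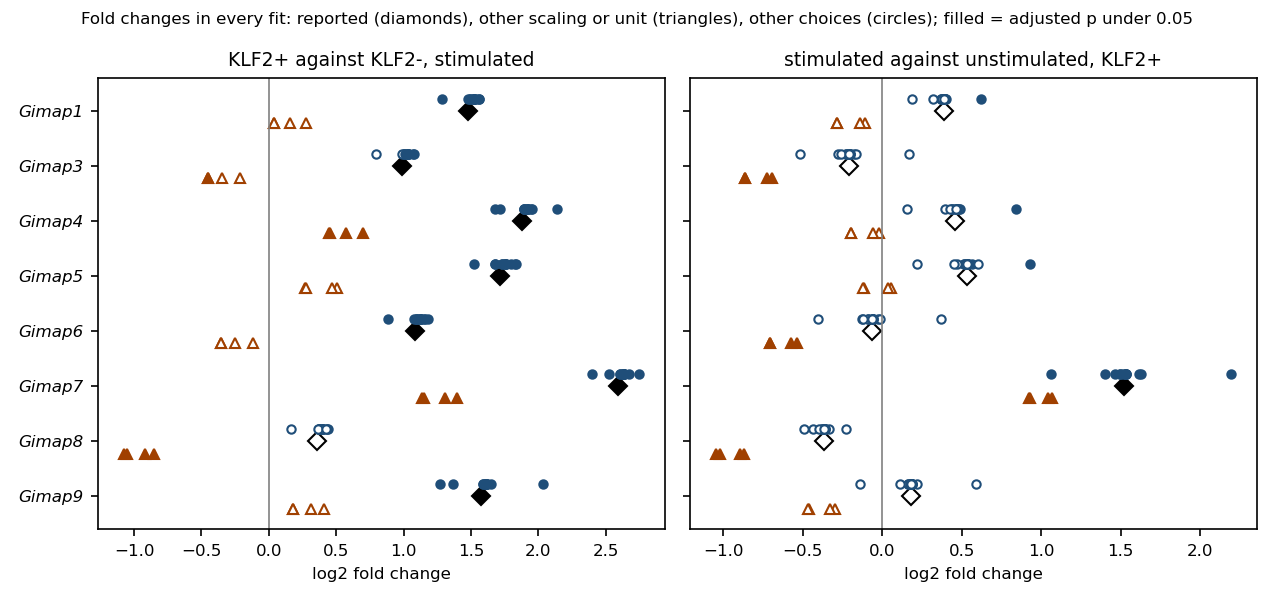
Log2 fold change of each GIMAP gene in every fit (horizontal axes), for stimulated KLF2+ against KLF2- cells (left) and stimulation of KLF2+ cells (right): reported values (diamonds), fits with TMM from genes of at least 50 CPM, background correction or TPM (triangles), and all others (circles); filled symbols have an adjusted p under 0.05. The Gimap7 symbols are all filled and above 0 in both panels and those of Gimap4 in the left, whereas Gimap3, Gimap6 and Gimap8 in the left panel lie on both sides of 0.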

How the data were processed

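RNA-seq of 8 libraries of mouse CD4 T cells was analysed. The authors' deposited estimated counts per gene (multiples of 0.5) were made with HOMER over mm10 exons without depth adjustment, per the file headers. A second table deposited by the authors holds TPM for the same libraries, used for the limma alternatives. The submitters' processing notes name STAR 2.7.9, HOMER 4.11, SAMtools and DESeq2. Filters on reads and the use of strand are not given in the sources used here.

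Counts were rounded to whole numbers and fitted in edgeR 4.0.16 (R 4.3.3) with TMM over all 8 libraries and 4 groups after filterByExpr (19146 of 25124 genes). Quasi-likelihood tests were adjusted by Benjamini-Hochberg over all genes tested, and an adjusted p under 0.05 was called. The standard error is the log2 fold change over the square root of F. Background correction subtracted reads per kb over 1464 olfactory and vomeronasal receptor genes, times exon length, with TMM factors from genes of at least 50 CPM (15292 genes tested). Other alternatives were DESeq2 1.42.0, RLE factors, no filter, limma 3.58.1 on log2(TPM + 1) and log2(TPM + 0.1), only the groups compared, a replicate block, and each library left out. The fitting was tested on simulated data. Exon reads ranged from 2.99 M to 36.6 M per library.

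The members, gene lists and tests were chosen with earlier results of these data known. Named genes are the 8 members, the 5 nearest table genes on each side, Klf2, up to 3 called genes per list by smallest p, and the 5 genes closest to the mean member pattern (log2 of CPM + 1, mean of at least 10 CPM). Other list members named in the text were chosen after their values were seen. Shared sequence was counted as 50-base stretches of GENCODE M21 transcripts.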

Additional observations from a re-analysis of the deposited data

Results flagged for a closer look

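The difference between the responses of KLF2+ and KLF2- cells was larger than the spread between libraries for 2 members, both higher. The test was of the difference itself (edgeR, p-values adjusted by Benjamini-Hochberg). Of all genes tested, 35.8% were called for this difference and 20.3% were higher. For Gimap7 the difference was 1.83 ± 0.43 on the log2 scale (adjusted p = 0.0205), from 1.52 in KLF2+ and -0.31 in KLF2- cells. For Gimap1 it was 1.10 ± 0.30 (adjusted p = 0.0261), from 0.39 and -0.72. After background correction they were 0.91 and 0.11, neither called. Which members were called on the TMM scale also changed when single libraries were left out. The stimulated KLF2+ libraries had the lowest and the stimulated KLF2- libraries the highest share of background reads, and the part of this in the 2 values was not tested.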

How the results depend on the processing

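Of 656 alternative values for single members, 523 kept direction and side of the threshold, 31 lost a call, 33 gained one and 69 changed sign. Counts of called members that moved are given by comparison. For unstimulated KLF2+ against KLF2- cells, 0 were called, against 2 with DESeq2, 1 with no low-count filter, 1 with only the groups compared in the fit, and 0 to 5 leaving out single libraries (5 without KLF2+ replicate 1). For stimulated cells, 7 were called (75.2% of all genes), against 3 with TMM from genes of at least 50 CPM, 3 background-corrected (54.5% of all genes) and 4 in both TPM fits. For the KLF2+ response, 1 was called (37.1% of all genes), against 4 in each of the same 4 fits (1 higher, 3 lower). Background correction called 29.1% of all genes there. For the KLF2- response 0 were called in every fit run. For the difference in response, 2 were called, against 1 with RLE factors, 1 (lower) with TMM from genes of at least 50 CPM, 1 (lower) in both TPM fits, 0 background-corrected, and 0 to 6 leaving out single libraries. It was 0 without stimulated KLF2+ replicate 2 or unstimulated KLF2- replicate 3 or 4, 1 without KLF2+ replicate 1 of either state, 4 without stimulated KLF2- replicate 3, and 6 without unstimulated KLF2+ replicate 2. The cause of these shifts was not tested. A lone library left in a group was assumed to vary like the other groups.

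With TMM from genes of at least 50 CPM, background correction, and limma on log2(TPM + 1) and log2(TPM + 0.1), these log2 fold changes changed sign, their values given in that order. For unstimulated KLF2+ against KLF2- cells the reversed values were Gimap8 from 0.35 to -0.0074 and -0.0075 (TPM fits). For stimulated KLF2+ against KLF2- cells the reversed values were Gimap3 from 0.99 to -0.21, -0.35, -0.45 and -0.45, Gimap6 from 1.08 to -0.12, -0.25, -0.36 and -0.36, Gimap8 from 0.36 to -0.85, -0.92, -1.05 and -1.08. For the KLF2+ response the reversed values were Gimap1 from 0.39 to -0.11, -0.14, -0.29 and -0.29, Gimap4 from 0.46 to -0.021, -0.057, -0.19 and -0.19, Gimap5 from 0.53 to -0.12 and -0.12 (TPM fits), Gimap9 from 0.18 to -0.30, -0.33, -0.46 and -0.47. For the KLF2- response the reversed values were Gimap5 from -0.23 to 0.17, 0.20, 0.16 and 0.16, Gimap7 from -0.31 to 0.085, 0.13, 0.082 and 0.083, Gimap8 from -0.37 to 0.030, 0.066, 0.022 and 0.022. For the difference in response the reversed values were Gimap3 from 0.35 to -0.53, -0.64, -0.70 and -0.70, Gimap4 from 0.99 to -0.046 and -0.046 (TPM fits), Gimap5 from 0.76 to -0.12, -0.16, -0.28 and -0.28, Gimap6 from 0.53 to -0.34, -0.45, -0.51 and -0.51, Gimap8 from 0.0045 to -0.90, -0.96, -1.05 and -1.07, Gimap9 from 0.90 to -0.0099, -0.090 and -0.090 (background-corrected and TPM fits). Outside these fits, Gimap8 in the difference in response went to -0.095 with DESeq2 and -0.095 with RLE factors, and leaving out single libraries gave -0.12 to 0.15. For the KLF2+ response leaving out single libraries gave -0.52 to 0.17 for Gimap3, -0.41 to 0.37 for Gimap6 and -0.14 to 0.59 for Gimap9.

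A block for the replicate number called 2 members in the KLF2+ response (Gimap5 and Gimap7), 0 in the KLF2- response and 4 in the difference in response (Gimap1, Gimap4, Gimap7 and Gimap9), with 2 residual degrees of freedom. Deviations of same-numbered libraries correlated at 0.63 in KLF2+ and 0.24 in KLF2- cells over 10395 genes. With 2 pairs in a population, and no label saying what a number marks, the numbers were taken as names. No paired analysis was possible between KLF2+ and KLF2- cells because they share no replicate numbers. With 2 libraries per group, precision rests on the spread shared over 4 groups. The shallowest group, stimulated KLF2- cells, also has the largest share of background reads.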
